A study of Mus musculus with 24 samples.

Results

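Around the oocyte of an ovarian follicle lie granulosa cells, somatic cells that feed it, and a small set of transcription factors sets and keeps their identity. The 9 genes described here are factors of that kind: Foxl2, Foxo1, Wt1, Gata4, Gata6, Nr5a1, Nr5a2, Nr0b1 and Esr2. They were taken by gene name from count tables that list 78298 genes, and all 9 were present. The libraries came from wild-type mouse follicles embedded in an alginate gel and grown until day 3 with fetal bovine serum and follicle stimulating hormone (FSH, 50 mIU/ml), so that every group shares the gel, the serum and the hormone. The granulosa cell groups and the oocyte groups were each treated with 20 µM blebbistatin, an inhibitor of the motor protein myosin II, or with dextran at 10 kPa, a polysaccharide that draws water out and compresses the follicle, or were left as control. The 24 libraries fall into 6 groups of 4. Follicles larger than 180 µm were pulled apart by hand, so a granulosa library holds many pooled cells and an oocyte library holds 1 or 2 oocytes. Neither strain and age of the mice nor a solvent in the control medium is given in the sources used here. The labels call the replicates biological without naming separate animals, so p-values measure the spread between these libraries, which may be partly technical. In pooled cells, fewer cells of a type and less RNA per cell cannot be told apart.

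FOXL2 is a forkhead factor that keeps ovarian somatic cells from turning to a testis fate, and WT1 and GATA4 are zinc finger factors that act early in the gonad of both sexes. The nuclear receptors NR5A1 (SF-1) and NR5A2 (LRH-1) bind a common DNA motif and switch on steroid-making genes, and NR0B1 (DAX-1) is a receptor relative that represses them. ESR2 is the estrogen receptor beta of granulosa cells, and FOXO1 is the forkhead factor that FSH signalling, through AKT, moves out of the nucleus.

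Levels are in CPM, counts relative to the scaled total of a library. CPM are scaled over the 12 libraries of a cell type where treatments are compared, and over all 24 libraries where granulosa cells are tested against oocytes, so the same gene has slightly different values in each. Log2 changes carry their standard error (SE), and a gene was called where the edgeR quasi-likelihood test gave an adjusted p under 0.05 over all genes tested. Total counts ran from 16432298 to 22431013 in granulosa libraries and from 14244103 to 18399551 in oocyte libraries. A count of 0 allows up to 0.134 to 0.183 CPM in a granulosa library and up to 0.163 to 0.211 CPM in an oocyte library, from 3 counts of its total and for counting error only. Most markers matched the labelled cell types. The 12 granulosa markers summed to 22182 to 37974 CPM in granulosa libraries and to 376 to 3116 CPM in oocyte libraries. The 13 oocyte markers summed to 14288 to 24026 CPM in oocyte libraries but to 3.1 to 37.8 CPM in granulosa libraries. Of the granulosa markers only Cyp19a1 was higher in oocytes, at 363% of the granulosa level in control. Some libraries that stand apart touch these genes. Granulosa blebbistatin library 1 had a count in 14538 genes, against 18605 to 24297 in the other granulosa libraries. Granulosa blebbistatin libraries 1 and 2 summed to 542 and 809 CPM over 5 immune markers, against 8.6 CPM or less in the other 10 granulosa libraries. Oocyte control libraries 2 and 1 carried Inha, the inhibin alpha subunit of granulosa cells, at 12.5% and 2.22% of the granulosa control mean, against 0.273% and 0.0872% in oocyte control libraries 3 and 4. Oocyte blebbistatin library 1 carried Inha at 2.17% of the granulosa blebbistatin mean, against 0.168% to 0.53% in the other oocyte blebbistatin libraries.

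Within control granulosa cells the factors differed widely in level once transcript length was taken into account. Levels per kilobase of the longest annotated transcript (GENCODE M21) are given as CPM per kb, mean ± SD of 4 libraries, on the scale of each cell type's own libraries. Esr2 was highest at 77.6 ± 9.07 CPM per kb, and Nr5a2 was next at 59.7 ± 2.30 CPM per kb. The libraries of these 2 genes did not overlap, and neither overlapped Foxo1 at 32.2 ± 3.12 CPM per kb. Gata4 (26.3 ± 5.47 CPM per kb), Nr5a1 (19.2 ± 2.10 CPM per kb) and Wt1 (16.2 ± 4.34 CPM per kb) followed, and each overlapped its neighbour in the order, Foxo1 included. Foxl2 stood below Wt1 without overlap at 7.57 ± 2.47 CPM per kb. Gata6 (5.94 ± 1.63 CPM per kb) and Nr0b1 (4.69 ± 6.94 CPM per kb) overlapped Foxl2 and each other. The order was led by Esr2 and Nr5a2 and closed by Foxl2, Gata6 and Nr0b1 in all 3 granulosa groups. Which transcripts the cells used is not known, so the length that applies may differ: by merged exon length, Gata6 and Nr0b1 changed places in control, and Wt1 (5.80 to 10.6 CPM per kb) overlapped Foxl2 (3.99 to 9.64 CPM per kb).

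**Figure D1:**
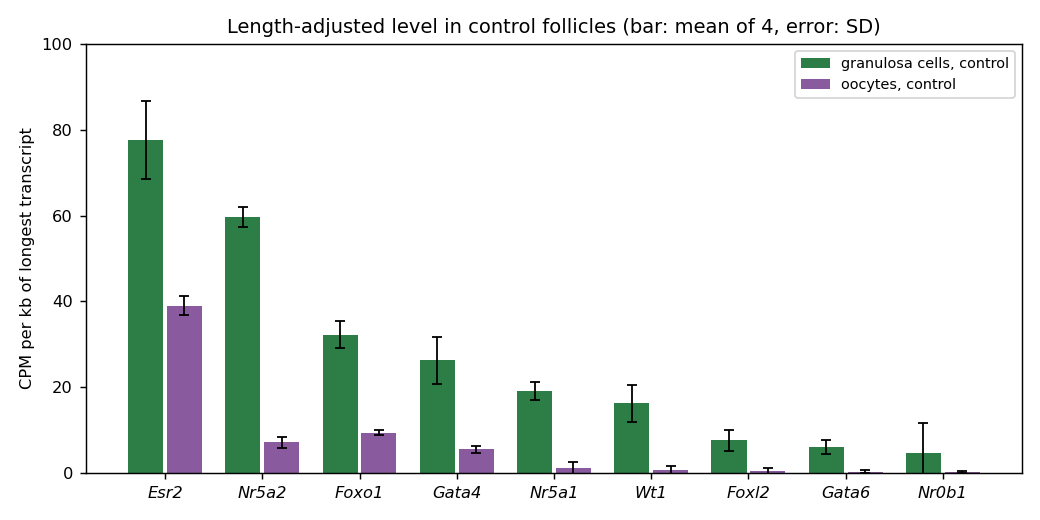
Level of each factor per kilobase of its longest transcript in control follicles (y axis, CPM per kb), with granulosa cells left and oocytes right for each gene; bars are means of 4 libraries and error bars SD. Esr2 leads in both cell types, at 77.6 CPM per kb in granulosa cells and 39.0 CPM per kb in oocytes. Each cell type is on the scale of its own libraries, so granulosa and oocyte bars do not share a common scale.

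The question of the cell type comparison is which of these factors the oocyte libraries lack. In control follicles all 9 were called higher in granulosa cells than in oocytes, where 32.9% of the 20601 genes tested were called higher. Foxl2, Wt1 and Nr0b1 did not pass the filter on low counts in the oocyte libraries and entered this comparison through the granulosa libraries, so they had to differ and their calls add nothing to the count. The other 6 passed the filter in both cell types. The members fell into those that every oocyte library held and those that most oocyte libraries nearly lacked.

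Esr2, Foxo1, Gata4 and Nr5a2 had counts in all 12 oocyte libraries. Esr2 (ENSMUSG00000021055) averaged 236 ± 27.1 CPM in granulosa cells and 151 ± 13.0 CPM in oocytes of control follicles (SD, n = 4 each), a log2 difference of 0.64 ± 0.14 (edgeR adjusted p = 0.00029). Its counts were 1481 to 2301 in oocyte libraries, and the oocyte level was 59.2% of the granulosa level under blebbistatin, 55.7% under dextran and 64.1% in control. Foxo1 (ENSMUSG00000044167) averaged 253 ± 24.9 CPM in granulosa cells and 94.3 ± 12.7 CPM in oocytes of control follicles, a log2 difference of 1.42 ± 0.19 (edgeR adjusted p = 1.03e-06). The oocyte share of Foxo1 was 37.4%, 40.0% and 37.3% of the granulosa level under blebbistatin, dextran and control. The shares of these 2 genes lay close together across treatments. Shares here and below are on the scale over 24 libraries. Without scaling, the control shares were lower, at 50.3% for Esr2, 29.2% for Foxo1, 11.9% for Nr5a2 and 20.9% for Gata4.

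Nr5a2 (ENSMUSG00000026398) averaged 256 ± 10.5 CPM in granulosa cells and 39.2 ± 11.0 CPM in oocytes of control follicles, a log2 difference of 2.71 ± 0.18 (edgeR adjusted p = 2.42e-11). Its oocyte share was 14.1% under blebbistatin, 14.3% under dextran and 15.3% in control. Gata4 (ENSMUSG00000021944) averaged 81.0 ± 17.1 CPM in granulosa cells and 21.6 ± 3.94 CPM in oocytes of control follicles, a log2 difference of 1.91 ± 0.26 (edgeR adjusted p = 1.58e-06). Its oocyte share was 13.3% under blebbistatin, 15.2% under dextran and 26.6% in control, further apart than those of the other 3 genes. Every granulosa library of these 4 genes lay above every oocyte library of the same treatment, where 32.6% of all genes did so in control, 25.4% under blebbistatin and 34.6% under dextran. Inha, read beside them as a granulosa marker, stood at 0.838% of the granulosa level in blebbistatin oocytes, 0.142% in dextran oocytes and 3.78% in control oocytes. The granulosa markers did not all stand that low. Serpine2 stood at 10.7%, 12.4% and 13.8% in the same order, near Nr5a2, and Cyp19a1 at 4300%, 2010% and 363%. The remaining markers stood at 10.2% (Amh in control) or less.

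Foxl2, Wt1, Nr5a1, Gata6 and Nr0b1 were at or near 0 in most oocyte libraries. Foxl2 (ENSMUSG00000050397) had 4, 0, 3 and 0 counts in blebbistatin oocytes, 1, 1, 0 and 0 in dextran oocytes and 13, 85, 0 and 0 in control oocytes, against 1407, 1782 and 2074 counts summed over the granulosa blebbistatin, dextran and control libraries. Wt1 (ENSMUSG00000016458) had 0, 0, 27 and 0 counts in blebbistatin oocytes, 1, 0, 0 and 0 in dextran oocytes and 19, 119, 1 and 0 in control oocytes. Nr5a1 (ENSMUSG00000026751) had 1, 0, 0 and 6 counts in blebbistatin oocytes, 14, 4, 0 and 3 in dextran oocytes and 35, 187, 12 and 0 in control oocytes. For these 3 genes the highest oocyte library was control library 2, and the second in Foxl2 and Nr5a1 was control library 1. Gata6 (ENSMUSG00000005836) had 25, 0, 0 and 16 counts in blebbistatin oocytes, 5, 1, 3 and 9 in dextran oocytes and 20, 43, 10 and 0 in control oocytes. Nr0b1 (ENSMUSG00000025056) had 0 counts in 6 of 12 oocyte libraries and at most 16, in control library 2.

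In control follicles the log2 differences of granulosa cells over oocytes were 3.71 ± 0.96 for Foxl2 (edgeR adjusted p = 0.0016), 4.23 ± 1.05 for Wt1 (0.0012), 3.68 ± 0.90 for Nr5a1 (0.00096) and 3.75 ± 1.04 for Gata6 (0.0029). Without oocyte control library 2 they were 6.19 for Foxl2, 6.58 for Wt1, 5.56 for Nr5a1 and 4.64 for Gata6, all called. Foxl2 and Wt1 did not pass the filter in oocytes, so they had to differ and their p-values and calls add nothing. In that library Foxl2 stood at 25.7%, Nr5a1 at 24.3%, Wt1 at 17.7% and Gata6 at 16.7% of the granulosa control mean, beside Amh at 33.5%, Amhr2 at 23.1%, Inhbb at 15.9% and Inha at 12.5%. Other granulosa markers stood lower there, with Hsd17b1 at 11.9%, Gja1 at 9.72%, Fst at 7.66%, Fshr at 6.6%, Kctd14 at 5.53% and Inhba at 4.05%. Serpine2 stood at 21.1% and Cyp19a1 at 442%, against 9.95% to 13.1% and 232% to 416% in the other control libraries. The part of granulosa RNA in the oocyte values of these genes was not tested. Nr0b1 was called in control follicles with a log2 difference of 4.77 ± 1.5 (edgeR adjusted p = 0.0071). It too did not pass the filter in oocytes, so its call adds nothing. Its groups overlapped, and the call was lost without granulosa control library 4, at 2.86 (edgeR adjusted p = 0.069).

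**Figure D2:**
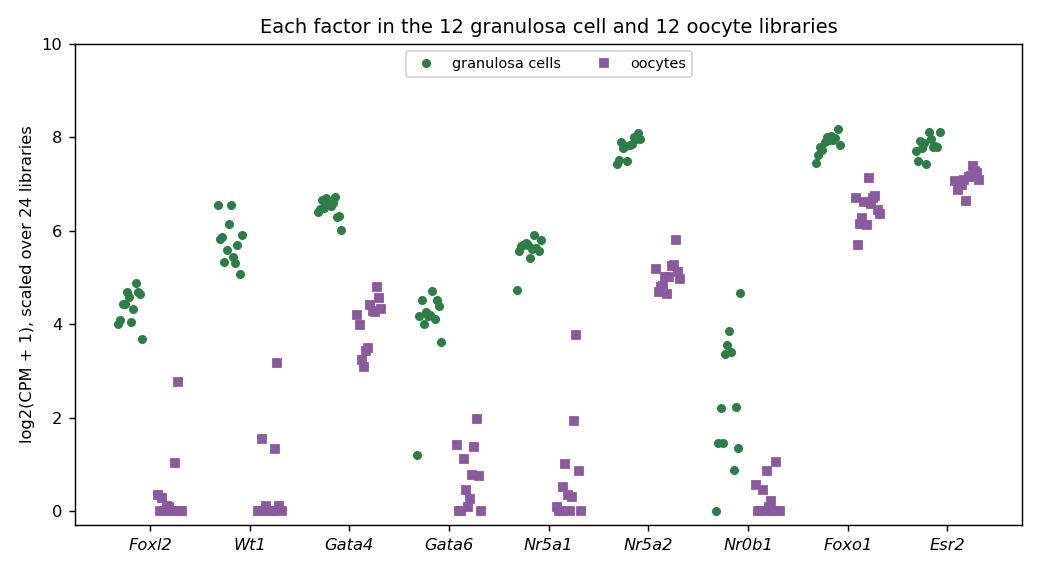
Level of each factor in every library (y axis, log2(CPM + 1), scaled over 24 libraries), 12 granulosa cell libraries (circles) left of 12 oocyte libraries (squares), drawn from left to right as blebbistatin, dextran and control. Esr2, Foxo1, Nr5a2 and Gata4 lie above 3 in every oocyte library, while Foxl2, Wt1, Nr5a1, Gata6 and Nr0b1 lie near 0 in most.

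In blebbistatin follicles 8 of the 9 were called higher in granulosa cells, where 34.6% of all genes were, and in dextran follicles 9 of 9, where 35.4% were, with the same limit for Foxl2, Wt1 and Nr0b1. The exception was Nr0b1 under blebbistatin, with a log2 difference of 3.04 ± 1.46 (edgeR adjusted p = 0.062). The median log2 difference of all genes was −0.41 in control with TMM scaling and −0.061 with library totals alone, and the 6 members that passed the filter in oocytes kept a positive difference in control under every alternative tried.

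**Figure D3:**
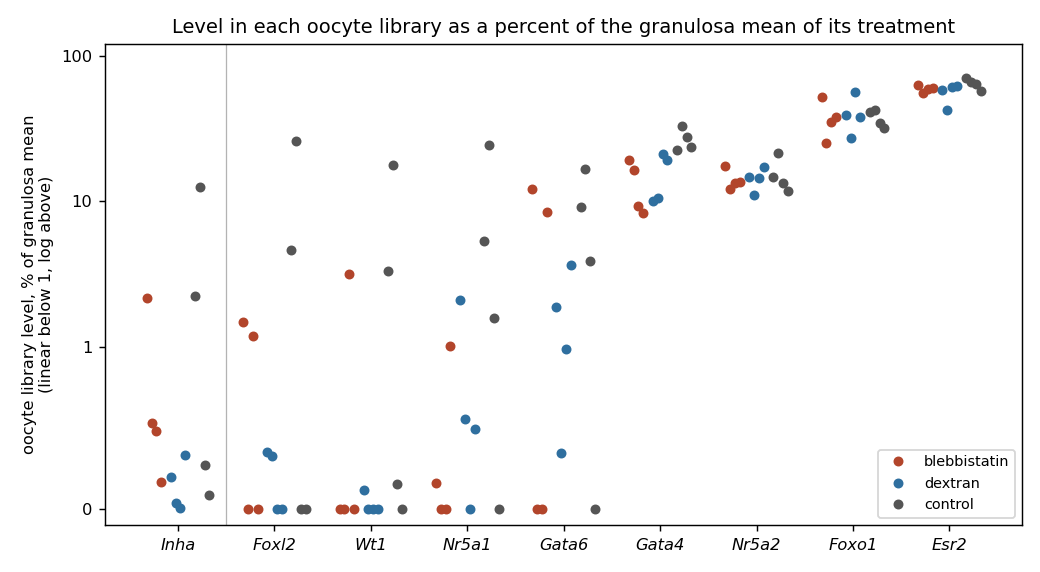
Level of 8 factors and of the granulosa marker Inha in each oocyte library as a percent of the granulosa mean of the same treatment (y axis, linear below 1 and logarithmic above), 4 libraries for each of blebbistatin, dextran and control. Esr2 sits between 42.4% and 70.0% in all 12 libraries, while Foxl2 sits at 0 in 6 and at 25.7% in control library 2.

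The sequences around the transcription starts of 4 members are shown to set Foxl2 and Nr0b1, which most oocyte libraries nearly lacked, beside Foxo1 and Esr2, which all held. Each window runs from 250 bases before to 50 bases after the start (RefSeq, GRCm38.p6), 5′ to 3′ on the strand of the gene. The windows lie at chr9:98955357-98955656 (plus strand, Foxl2), chrX:86191525-86191824 (plus strand, Nr0b1), chr3:52268087-52268386 (plus strand, Foxo1) and chr12:76177210-76177509 (minus strand, Esr2). Capitals mark the CCAAT box (CCAAT), the GC box (letters GGGCGG), the TATA box (letters TATAAA) and the nuclear receptor motif (letters AGGTCA), each on either strand, and GC box matches may overlap each other.
Foxl2: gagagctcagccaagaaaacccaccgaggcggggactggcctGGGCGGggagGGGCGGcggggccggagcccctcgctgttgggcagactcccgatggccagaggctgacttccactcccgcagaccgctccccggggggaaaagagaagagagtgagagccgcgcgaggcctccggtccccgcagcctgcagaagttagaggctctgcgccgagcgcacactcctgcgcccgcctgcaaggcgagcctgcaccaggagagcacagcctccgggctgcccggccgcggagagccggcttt
Nr0b1: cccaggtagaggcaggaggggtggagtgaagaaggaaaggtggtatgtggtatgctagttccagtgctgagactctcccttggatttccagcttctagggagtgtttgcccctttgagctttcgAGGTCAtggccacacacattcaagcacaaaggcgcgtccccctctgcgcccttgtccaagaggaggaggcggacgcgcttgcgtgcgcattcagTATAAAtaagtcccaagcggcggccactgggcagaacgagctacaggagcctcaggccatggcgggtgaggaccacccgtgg
Foxo1: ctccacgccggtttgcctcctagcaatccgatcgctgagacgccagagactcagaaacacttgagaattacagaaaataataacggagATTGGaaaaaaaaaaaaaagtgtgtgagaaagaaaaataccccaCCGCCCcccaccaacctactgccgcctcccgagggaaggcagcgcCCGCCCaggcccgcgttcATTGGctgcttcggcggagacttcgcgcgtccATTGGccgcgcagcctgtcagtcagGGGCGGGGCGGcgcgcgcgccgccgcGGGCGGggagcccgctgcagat
Esr2: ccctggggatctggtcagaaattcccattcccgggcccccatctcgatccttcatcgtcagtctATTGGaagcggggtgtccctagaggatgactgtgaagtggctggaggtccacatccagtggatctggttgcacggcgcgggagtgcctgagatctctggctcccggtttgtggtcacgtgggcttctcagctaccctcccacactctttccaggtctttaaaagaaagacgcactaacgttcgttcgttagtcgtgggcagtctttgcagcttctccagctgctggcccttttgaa

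The Foxl2 window was 71.3% G or C, held 2 GC boxes and none of the other 3 motifs. The Foxo1 window was 61.3% G or C and held 5 GC boxes and 3 CCAAT boxes. The Nr0b1 window (58.7% G or C) held a TATA box that begins 32 bases before the start and a nuclear receptor motif that begins 126 bases before it. The Esr2 window (56.0% G or C) held 1 CCAAT box. Of all 32851 windows in the same table, 37.4% held a CCAAT box, 35.7% a GC box, 16.3% the nuclear receptor motif and 13.6% a TATA box, and the median window was 52.7% G or C. The CCAAT box was thus in both windows of genes that every oocyte library held and in neither of the other pair, while the GC box was in 1 window of each pair. With 4 windows and a motif this common, the split is a description only, and a match is a string of letters and not a bound site. Nr5a2, which every oocyte library also held, had 2 start windows that were not part of the pairs. Of these, 1 held a CCAAT box and the other held the nuclear receptor motif and no CCAAT box. The Gata6 window was left out and none was used for Wt1, Gata4 or Nr5a1, so the split was not read over all members.

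The blebbistatin comparison in granulosa cells asks whether blocking myosin II moved these factors. None of the 9 was called with edgeR, limma voom or DESeq2, where 0.00651% of the 15370 genes were called with edgeR. DESeq2 gave Nr0b1 no adjusted p in this or the other granulosa treatment comparisons, so it judged only the other members there. At an unadjusted p under 0.05, 2 of 9 passed (Foxo1 and Nr5a2), where 10.4% of all genes did. The log2 change was negative for 7 of 9, where 54.6% of all genes were negative, with a median of −0.31 against −0.05 for all genes. Sums of granulosa markers and of theca and stroma markers differed between the groups. Summed granulosa markers were 22182 to 26293 CPM under blebbistatin and 31065 to 37974 CPM in control. Summed theca and stroma markers were 407 to 1550 CPM under blebbistatin and 45.6 to 379 CPM in control (46.4 to 367 CPM under dextran), with all 15 markers detected in at least 1 blebbistatin library. The 6 surface epithelium markers summed to 0 in all blebbistatin granulosa libraries, to 0 to 0.383 CPM under dextran and to 0 to 0.839 CPM in control, near 0 throughout. The part of the granulosa, theca and stroma marker sums in the values of the 9 factors was not tested.

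Foxo1 stood at 192, 216, 242 and 233 CPM under blebbistatin and at 269, 280, 316 and 252 CPM in control. Every blebbistatin library lay below every control library. The log2 change was −0.34 ± 0.09 (unadjusted p = 0.0037, edgeR adjusted p = 0.23). Without blebbistatin library 1 it was −0.26, and without libraries 1 and 2 it was −0.22, so that a smaller difference was left.

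Nr5a2 stood at 187, 202, 260 and 240 CPM under blebbistatin and at 280, 278, 299 and 274 CPM in control. These groups also did not overlap. The log2 change was −0.35 ± 0.12 (unadjusted p = 0.011, edgeR adjusted p = 0.30), and it was −0.26 without blebbistatin library 1 and −0.17 without libraries 1 and 2. Of the 9 members, 2 thus lay wholly below control, where 4.17% of all genes did. Blebbistatin library 1 was the lowest of its group for both genes.

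Gata4, Wt1 and Esr2 overlapped between blebbistatin and control. Gata4 stood at 90.9, 96.2, 111 and 98.2 CPM under blebbistatin and at 115, 85.4, 87.1 and 70.4 CPM in control, a log2 change of 0.15 ± 0.14 (edgeR adjusted p = 0.75). Wt1 stood at 101, 60.9, 62.8 and 43.0 CPM under blebbistatin and at 42.5, 56.5, 35.9 and 65.6 CPM in control, a log2 change of 0.42 ± 0.30 (edgeR adjusted p = 0.67). Its highest blebbistatin library was library 1, the one that stands apart, and the log2 change was 0.17 without it. Esr2 stood at 226, 198, 264 and 239 CPM under blebbistatin and at 244, 248, 244 and 306 CPM in control, a log2 change of −0.17 ± 0.14 (edgeR adjusted p = 0.73).

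Foxl2 stood at 16.4, 17.6, 22.7 and 22.6 CPM under blebbistatin and at 31.4, 27.6, 26.6 and 13.0 CPM in control, a log2 change of −0.31 ± 0.27 (edgeR adjusted p = 0.73). Control library 4 was the lowest of these 8 libraries, so the groups overlapped. Nr5a1 stood at 27.8, 51.0, 54.7 and 56.2 CPM under blebbistatin and at 64.9, 53.9, 50.9 and 60.2 CPM in control, a log2 change of −0.28 ± 0.20 (edgeR adjusted p = 0.66) that was −0.075 without blebbistatin library 1. Gata6 stood at 1.41, 18.7, 24.1 and 16.6 CPM under blebbistatin and at 18.0, 24.5, 22.0 and 12.4 CPM in control. Its log2 change of −0.34 ± 0.57 (edgeR adjusted p = 0.88) turned to 0.059 without blebbistatin library 1, in which Gata6, Nr5a1 and Nr0b1 were each at their lowest.

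Nr0b1 varied most. It stood at 0, 1.92, 3.96 and 1.92 CPM under blebbistatin, at 10.4, 11.9, 14.9 and 10.7 CPM under dextran and at 0.93, 4.07, 1.71 and 27.2 CPM in control. The 4 dextran libraries were close to each other, while control library 4 was above all others and the remaining control libraries lay below every dextran library. The 0 of blebbistatin library 1 allows up to 0.163 CPM. The log2 change for blebbistatin against control was −2.11 ± 1.15 (edgeR adjusted p = 0.55) and was −0.19 without control library 4. For dextran against control it was 0.50 ± 1.09 (edgeR adjusted p = 0.99995) and was 2.41 without that library (edgeR adjusted p = 0.89). All 4 blebbistatin libraries lay below all 4 dextran libraries, a log2 change of −2.61 ± 1.17 (unadjusted p = 0.044, edgeR adjusted p = 0.55).

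**Figure D4:**
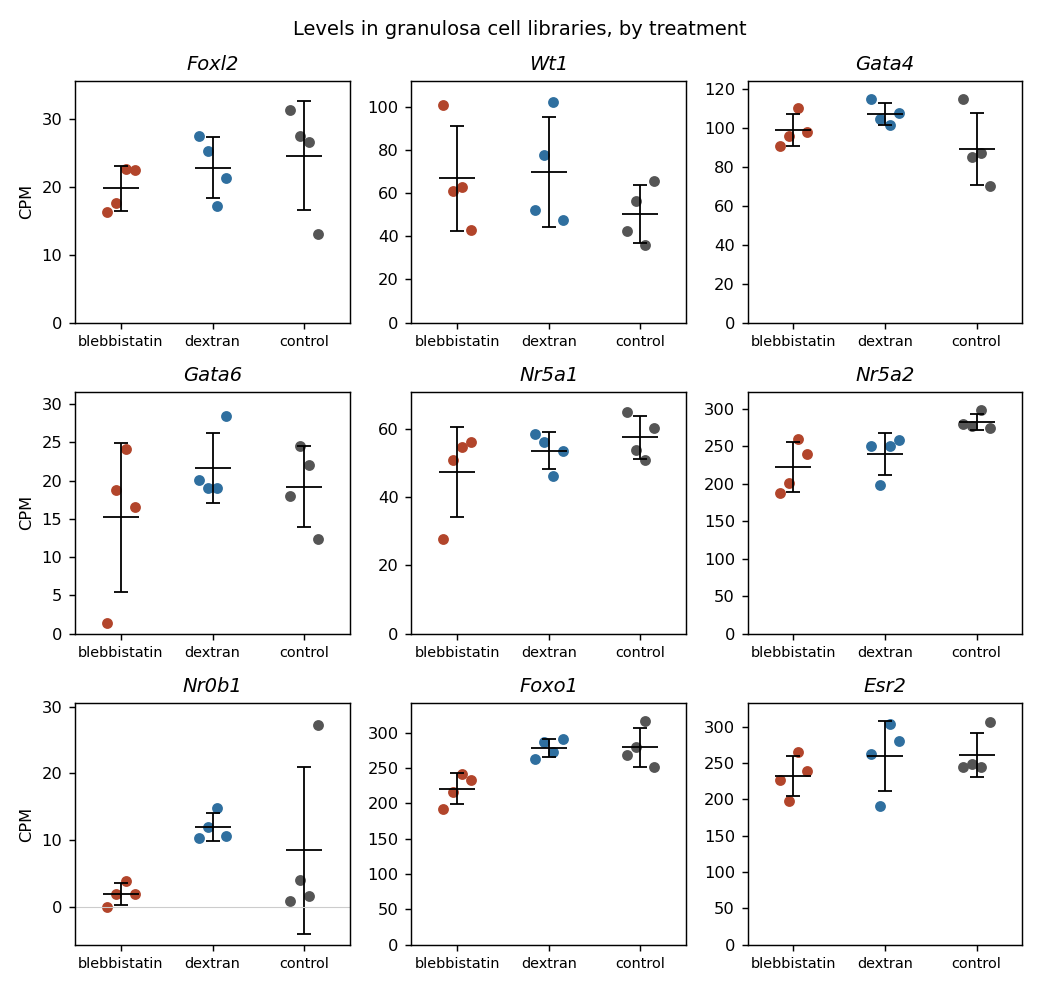
CPM of each factor in the granulosa cell libraries under blebbistatin, dextran and control (points are the 4 libraries, the line and bar are the mean and SD). Foxo1 and Nr5a2 lie lower in every blebbistatin library than in any control library, and Nr0b1 spreads from 0.93 to 27.2 CPM in control.

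The dextran comparison in granulosa cells asks the same of compression. None of the 9 was called with edgeR, limma voom or DESeq2, where 0% of all genes were called with edgeR, and 0 of 9 had an unadjusted p under 0.05, where 3.4% of all genes did. Nr0b1 again had no adjusted p with DESeq2. The median log2 change of the members was −0.0036, against −0.0037 for all genes. Nr5a2 stood at 251, 199, 251 and 259 CPM under dextran and at 280, 278, 299 and 274 CPM in control. All 4 dextran libraries were below control, a log2 change of −0.24 ± 0.12 (edgeR adjusted p = 0.99995). In this comparison 2.04% of all genes lay wholly below control, and the control libraries are the same as for blebbistatin, so the 2 comparisons are not independent. Foxo1 stood at 263, 287, 273 and 291 CPM under dextran, a log2 change from control of −0.0036 ± 0.095 (edgeR adjusted p = 0.99995).

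Wt1 stood at 52.2, 77.9, 102 and 47.3 CPM under dextran, a log2 change of 0.48 ± 0.30 (edgeR adjusted p = 0.99995). Gata4 stood at 115, 105, 102 and 108 CPM under dextran, a log2 change of 0.26 ± 0.14 (edgeR adjusted p = 0.99995) in which control library 1, at 115 CPM, was level with the highest dextran library. Foxl2, Nr5a1, Gata6 and Esr2 had log2 changes of −0.11 ± 0.27, −0.10 ± 0.20, 0.17 ± 0.57 and −0.0091 ± 0.14 (edgeR adjusted p = 0.99995 each), and their groups overlapped. Between the 2 treatments none of the 9 was called with any of the 3 tools, where 0% of all genes were called with edgeR, although 2 of 9 had an unadjusted p under 0.05, where 8.84% of all genes did. These were Nr0b1, which had no adjusted p with DESeq2, and Foxo1. Foxo1 had a log2 change of −0.34 ± 0.09 for blebbistatin against dextran (edgeR adjusted p = 0.34), and like Nr0b1 it had all 4 blebbistatin libraries below all 4 dextran libraries, where 3.81% of all genes did.

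**Figure D5:**
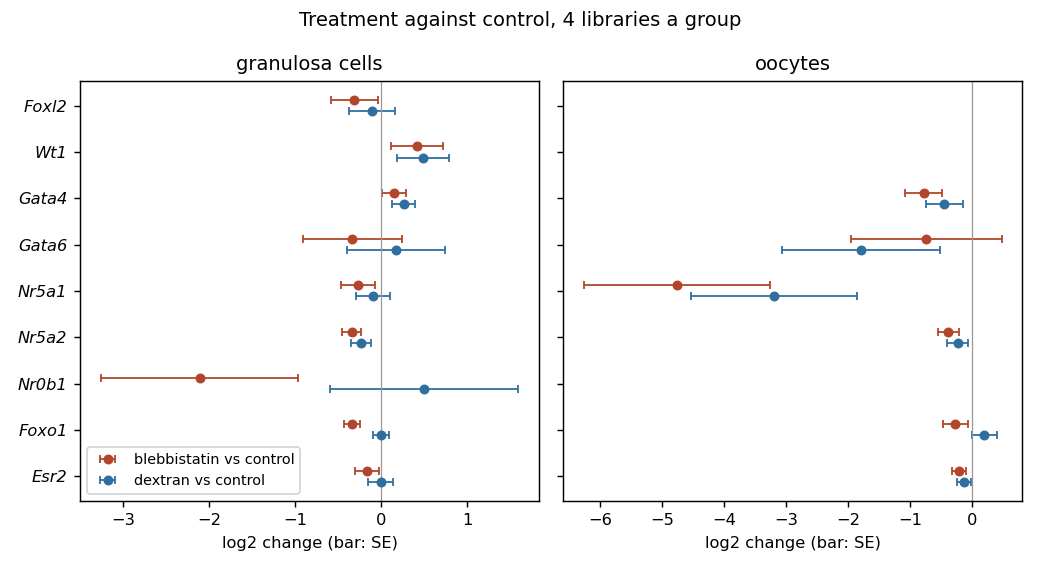
Log2 change of each factor against control (x axis) for blebbistatin and dextran, in granulosa cells (left) and oocytes (right); bars are SE from 4 libraries a group, and the 3 genes absent on the right did not pass the filter on low counts. No change was called, and the widest bars belong to Nr0b1, Gata6 and Nr5a1.

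In oocytes, 6 of the 9 passed the filter on low counts, and Foxl2, Wt1 and Nr0b1 did not. None of the 6 was called for blebbistatin or for dextran with edgeR, limma voom or DESeq2, where 0% of the 16749 genes were called with edgeR in either comparison. For blebbistatin DESeq2 gave Gata6 no adjusted p, so it did not judge that gene. At an unadjusted p under 0.05, 3 of 6 passed for blebbistatin, where 4.1% of all genes did, and 1 of 6 for dextran, where 5.31% did. Nr5a1 is among the 3 and is the 1 for dextran. Its highest counts were 35, 187 and 12 in control libraries 1, 2 and 3 and 14 in dextran library 1. It thus passed the filter mainly through control, the group where it is high, and its p adds nothing to these counts. CPM of these treatment comparisons are on the scale of the oocyte libraries. Esr2 stood at 116, 110, 114 and 114 CPM under blebbistatin, at 123, 96.6, 133 and 130 CPM under dextran and at 139, 122, 136 and 129 CPM in control. All blebbistatin libraries were below all controls, where 1.4% of all genes were, with a log2 change of −0.21 ± 0.11 (edgeR adjusted p = 0.99986).

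Gata4 stood at 15.2, 14.0, 7.58 and 6.76 CPM in blebbistatin oocytes and at 15.2, 20.9, 20.3 and 18.2 CPM in control oocytes, a log2 change of −0.78 ± 0.30 (unadjusted p = 0.022, edgeR adjusted p = 0.99986). Blebbistatin library 1 and control library 1 were level with each other, and the other blebbistatin libraries were lower. Nr5a2 stood at 30.7, 23.4, 24.4 and 24.8 CPM in blebbistatin oocytes and at 31.6, 43.0, 30.7 and 29.0 CPM in control oocytes, where blebbistatin library 1 overlapped control. Its log2 change was −0.38 ± 0.17 (edgeR adjusted p = 0.99986) and −0.21 without control libraries 1 and 2. The log2 change of Nr5a1 was −4.75 ± 1.5 under blebbistatin (edgeR adjusted p = 0.99986) and −3.19 ± 1.34 under dextran (edgeR adjusted p = 0.90), and it was −1.64 and −0.086 without control libraries 1 and 2, the 2 that carried the most granulosa transcripts. For Nr5a1 the counts in treated oocytes were between 0 and 14 per library. Foxo1 stood at 90.4, 47.9, 63.2 and 69.3 CPM in blebbistatin oocytes, at 88.3, 66.9, 133 and 85.9 CPM in dextran oocytes and at 86.8, 83.2, 78.4 and 77.4 CPM in control oocytes. The control libraries were close together and lay inside the range of both treatments. Between blebbistatin and dextran oocytes none of the 6 was called with any of the 3 tools, where 0% of all genes were called with edgeR, and 1 of 6, Foxo1, had an unadjusted p under 0.05 (log2 change −0.46 ± 0.20), where 4.07% of all genes did.

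A difference in treatment response between granulosa cells and oocytes was tested with an interaction term in the fit of 24 libraries. Of the 6 members that passed the filter in both cell types, none was called with edgeR for blebbistatin, where 0.0485% of all genes were, or for dextran, where 0% were. Gata4 and Nr5a1 had an unadjusted p under 0.05 for each treatment, 2 of 6, where 11.3% of all genes did for blebbistatin and 9.28% for dextran. Nr5a1 passed the filter in oocytes mainly through the control libraries, so its p adds nothing to this count. The interaction of Gata4 was 1.00 ± 0.36 on the log2 scale for blebbistatin (edgeR adjusted p = 0.32) and 0.80 ± 0.36 for dextran (edgeR adjusted p = 0.49). That of Nr5a1 was 4.68 ± 1.43 for blebbistatin and was 1.21 without oocyte control libraries 1 and 2. Foxl2, Wt1 and Nr0b1 entered this fit through the granulosa libraries, so their interactions give no usable test. Foxl2 had 3.41 ± 1.43 for blebbistatin and 5.22 ± 1.64 for dextran, and −4.76 and −2.84 without oocyte control libraries 1 and 2. Wt1 had 7.09 ± 2.08 for dextran and 1.13 without those libraries.

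Textbook target genes of these factors in granulosa cells were read beside them, from a list of 18 of which 17 were tested. The list does not separate targets that a factor raises from those that it lowers. It also holds most of the 12 granulosa markers, so it is not a separate reading from them. None was called for blebbistatin or dextran in granulosa cells, with 7 at an unadjusted p under 0.05 for blebbistatin, where 10.4% of all genes were, and 3 for dextran, where 3.4% were. Under blebbistatin 15 of 17 log2 changes were negative, where 54.6% of all genes were, with a median of −0.50. All 12 granulosa markers were negative there, so this count in part repeats their lower sum. In that comparison 3 targets (Inha, Inhbb and Fshr) lay wholly below control, where 4.17% of all genes did. Inha averaged 11733 ± 1298 CPM under blebbistatin and 16574 ± 1116 CPM in control, a log2 change of −0.50 ± 0.10 (edgeR adjusted p = 0.12). Inhbb, a beta subunit of inhibin and activin, averaged 99.0 ± 21.6 CPM under blebbistatin and 521 ± 291 CPM in control, a log2 change of −2.40 ± 0.49 (edgeR adjusted p = 0.11). Of the 2 positive targets, Sox4 stood at 185 ± 42.0 CPM against 167 ± 65.1 CPM and Cyp11a1 at 1.20 CPM against 1.13 CPM in control. Under dextran 13 of 17 were negative, where 50.5% of all genes were, with a median of −0.40. Among them were Inhbb at 179 ± 89.8 CPM and Inhba at 440 ± 230 CPM, against 1145 ± 1050 CPM of Inhba in control, while Sox4 stood at 353 ± 84.5 CPM (edgeR adjusted p = 0.82).

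In control follicles 14 of 17 targets were called higher in granulosa cells than in oocytes, where 32.9% of all genes were, and none lower. Scarb1, the receptor that takes up cholesterol from lipoproteins, averaged 152 CPM in granulosa cells and 63.4 CPM in oocytes. Inhba averaged 1039 CPM in granulosa cells and 17.3 CPM in oocytes. Aromatase (Cyp19a1) was not called in control, at 7.92 CPM in granulosa cells and 28.8 CPM in oocytes (edgeR adjusted p = 0.20). It was the 1 target called lower in granulosa cells in treated follicles, at 0.752 CPM against 32.3 CPM in oocytes under blebbistatin (edgeR adjusted p = 0.0037) and 1.67 CPM against 33.5 CPM under dextran (edgeR adjusted p = 0.011).

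The FOXO target list held 18 genes, 17 tested, and none was called for either treatment, with 3 at an unadjusted p under 0.05 for each, where 10.4% of all genes were for blebbistatin and 3.4% for dextran. Under dextran 12 of 17 were positive, where 49.5% of all genes were, with a median of 0.48, beside a log2 change of −0.0036 for Foxo1 itself. Klf9 averaged 65.0 ± 17.8 CPM under dextran and 37.1 ± 9.41 CPM in control, and Cited2 averaged 27.9 ± 11.1 CPM under dextran and 9.46 ± 9.40 CPM in control (edgeR adjusted p = 0.99995 each). The negative ones of smallest p were Ddit4 and Txnip, at log2 changes of −0.20 and −0.088. Under blebbistatin 11 of 17 were negative, where 54.6% of all genes were, with a median of −0.18. Txnip averaged 89.5 ± 17.7 CPM under blebbistatin and 143 ± 46.3 CPM in control (edgeR adjusted p = 0.28), Ddit4 averaged 12.5 ± 3.97 CPM under blebbistatin and 21.9 ± 10.3 CPM in control, and Gadd45a averaged 16.9 ± 8.61 CPM under blebbistatin and 9.62 ± 2.37 CPM in control. For blebbistatin against dextran 16 of 17 were negative, where 55.3% of all genes were, with a median of −0.61 beside −0.049 for all genes. The 5 that lay wholly below dextran were Irs2, Insr, Bcl6, Pdk4 and Txnip, where 3.81% of all genes did, and none was called. By cell type these targets went both ways in control, with 7 called higher and 3 lower in granulosa cells, where 32.9% and 44.4% of all genes were. Only 14 of them passed the filter in oocytes, so some entered through the granulosa libraries and their calls add nothing. Klf9 averaged 33.6 CPM and Sesn1, a stress-response gene, 56.7 CPM in control granulosa cells, against 1.95 and 4.74 CPM in oocytes, and Cited2 averaged 8.56 CPM in granulosa cells and 45.5 CPM in oocytes.

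Family relatives of the members went both ways between cell types, in shares near those of all genes. Of 17 relatives, 13 were tested between cell types in control, and 4 were called higher and 6 lower in granulosa cells, where 32.9% and 44.4% of all genes were. Within a cell type 11 passed the filter in granulosa cells and 10 in oocytes. Some thus entered through the cell type where they are high, and their calls add nothing. Esrrb, an estrogen-related receptor, was at 0 in granulosa cells of control follicles and averaged 104 ± 6.80 CPM in oocytes. Nr6a1, the germ cell nuclear factor, averaged 0.723 ± 0.294 CPM in granulosa cells and 89.2 ± 21.4 CPM in oocytes. Foxo3, the forkhead factor that holds primordial oocytes at rest, averaged 19.3 ± 5.63 CPM in granulosa cells and 123 ± 12.8 CPM in oocytes. Esr1, the alpha receptor, averaged 54.0 ± 9.25 CPM in granulosa cells and 124 ± 25.2 CPM in oocytes, opposite to Esr2. In granulosa cells no relative was called for either treatment. Among those of smallest p were Esr1 under blebbistatin, at 41.3 ± 17.1 CPM against 59.7 ± 10.2 CPM in control, and Foxo3 under dextran, at 26.4 ± 4.20 CPM against 21.2 ± 6.14 CPM in control.

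Cofactors of granulosa and gonad fate, 20 genes with 15 tested in granulosa cells, held no called gene for either treatment. Tcf21, a factor of stromal cells that is also in the theca and stroma markers, averaged 15.4 ± 10.9 CPM under blebbistatin and 1.61 ± 1.40 CPM in control (edgeR adjusted p = 0.43). Runx1, a partner of FOXL2, averaged 62.1 CPM under blebbistatin and 81.7 CPM in control (edgeR adjusted p = 0.72). Between cell types in control 8 of 17 were called higher in granulosa cells and 4 lower, where 32.9% and 44.4% of all genes were. Only 10 of the cofactors passed the filter in oocytes. Some thus entered through the cell type where they are high, and their calls add nothing to these counts. Among the higher ones were Runx1 at 73.9 CPM against 3.49 CPM in oocytes and Fst, follistatin, at 347 CPM against 9.02 CPM. Among the lower ones was Cbx2, a Polycomb subunit, at 14.5 CPM against 137 CPM.

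Of 11 testis-side genes, 5 were tested in granulosa cells, and none was called for either treatment. Sox9, the factor that drives the testis fate, averaged 4.02 ± 3.71 CPM under blebbistatin, 5.40 ± 6.69 CPM under dextran and 4.42 ± 2.34 CPM in control. Dhh, a hedgehog ligand, averaged 76.1 ± 12.9 CPM under blebbistatin, 60.9 ± 16.2 CPM under dextran and 119 ± 32.9 CPM in control (edgeR adjusted p = 0.37 for blebbistatin and 0.80 for dextran). Of 11 genes that respond to estrogen receptors, 8 were tested and none was called. Greb1 averaged 121 ± 46.6 CPM under blebbistatin and 205 ± 39.4 CPM in control (edgeR adjusted p = 0.26), and Igf1r averaged 167 ± 20.3 CPM under blebbistatin and 192 ± 11.9 CPM in control. Greb1 was called higher in granulosa cells than in oocytes of control follicles, at 186 ± 35.9 CPM against 4.25 ± 5.06 CPM.

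Non-coding genes lie within 1000 bases of 5 of the members on the opposite strand (GENCODE M21), and 3 of them had more than 10 counts in some granulosa library. Foxl2os had 81 to 342 counts in granulosa libraries and 0 to 4 in oocyte libraries. Gata6os had 10 to 322 counts in granulosa libraries and 0 to 13 in oocyte libraries, and Wt1os had 9 to 91 and 0 to 17. Nr5a1os had 0 to 8 counts in granulosa libraries and Gm20402, beside Foxo1, had 0 to 1. The first 3 were called higher in granulosa cells than in oocytes of control follicles, where 32.9% of all genes were. None of these 3 passed the filter on low counts in the oocyte libraries. They entered through the granulosa libraries, so they had to differ and their calls add nothing. For a treatment in granulosa cells none of the 3 was called. Whether the counting used strand is not stated in the sources used here, so where a member and its neighbour overlap, their reads may not be told apart. The limit of 1000 bases also takes in neighbours that do not overlap a member. The start windows of Foxl2 and Foxl2os share 204 of 300 bases, with starts 297 bases apart on opposite strands. Gata6os stood at 0.54 CPM in granulosa blebbistatin library 1 and at 9.83 to 14.3 CPM in the other blebbistatin libraries, and Gata6 was at its lowest in the same library.

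Among 10174 genes averaging 5 CPM or more in granulosa libraries, the nearest patterns over the 12 libraries were found from the root mean square difference of centred log2(CPM + 1) values. The nearest was Sec61a2 for Foxo1 (0.085), Aimp1 for Nr5a1 (0.096), Cdip1 for Esr2 (0.11), Sh3kbp1 for Nr5a2 (0.11), Utp20 for Gata4 (0.13), Zfp1001 for Gata6 (0.14), Rgcc for Foxl2 (0.16), Deptor for Wt1 (0.23) and Sec31b for Nr0b1 (0.40). The second nearest were Saraf for Foxo1, Atrn for Esr2, Tada3 for Nr5a2, Chmp7 for Gata4, Ppip5k1 for Gata6, Tmem60 for Foxl2, Tnip1 for Wt1 and Klf15 for Nr0b1. No member was the nearest or second nearest of another. These distances describe libraries that share preparation and depth, and say nothing of function.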

How the data were processed

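RNA sequencing measured 12 granulosa cell and 12 oocyte libraries. The authors deposited 1 table of estimated counts per cell type, made with salmon, per the labels. The submitters' processing notes name the build GRCm39; salmon settings, annotation release and strandedness are not stated there. Per the labels' protocols, cDNA was amplified over 15 PCR cycles, so reads may be copies of 1 molecule and floors cover counting error only, and RNA of all replicates was extracted together. Every sample column was used.

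Estimated counts were rounded, filtered with filterByExpr, scaled with TMM and tested by robust quasi-likelihood fits in edgeR 4.0.16 (R 4.3.3), over 12 libraries within a cell type and over 24 for cell types and interactions. Adjustment was by Benjamini-Hochberg over all genes tested, at 0.05, and the steps were tested on simulated data. Limma voom 3.58.1, DESeq2 1.42.0, other scalings, no filter, a replicate block, fits of 2 groups and leaving out libraries were alternatives. No pair of replicates agreed within sampling noise (smallest chi-square 12.4 per gene). The members, lists and tests were chosen with earlier results of these data known. Besides the 9 members, genes named are the 2 nearest in pattern to each and, of each list and comparison, genes past the threshold (at most 3 per direction by p) or else the 2 of smallest unadjusted p per direction. Others, among them Fshr, Esr1 between cell types, Cyp19a1, Irs2, Insr, Bcl6, Sox9 under blebbistatin and the markers, were named after their values were seen. Promoter windows came from RefSeq (GRCm38.p6), a different build from that of the counts. They were matched by symbol and used for 5 of the 9 members, with that of Gata6 left out. A few genes that the naming rule picks are not reported here.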

Additional observations from a re-analysis of the deposited data

Results flagged for a closer look

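Of 54 groups of 4 libraries (9 factors in 6 groups), 8 held a library far from the other 3 by Dixon's test at 95%, where chance flags about 1 in 20 groups of normally spread values. That rate does not hold where 3 libraries are at 0, since any count in the other is then flagged. This was so for Wt1 in blebbistatin and dextran oocytes and Nr0b1 in control oocytes, so the 8 cannot be set against it. In granulosa cells, Gata6 in dextran library 4 was high at 28.4 CPM, against 19.0 to 20.1 CPM in the others. Nr5a2 in dextran library 2 was low at 199 CPM, against 251 to 259 CPM. In control library 4, Nr0b1 was high at 27.2 CPM, against 0.933 to 4.07 CPM, and Esr2 was high at 306 CPM, against 244 to 248 CPM. In oocytes the far libraries rest on few counts. Wt1 stood at 1.75 CPM (27 counts) in blebbistatin library 3 and at 0.0659 CPM (1 count) in dextran library 1, with 0 in the other libraries of each group. Nr5a1 stood at 0.394 CPM (6 counts) in blebbistatin library 4. Nr0b1 stood at 0.845 CPM (16 counts) in control library 2, with 0 in the other control libraries.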

How the results depend on the processing

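Under 20 alternatives per comparison within a cell type and 31 across cell types, the number of members called stayed at 0 in each of the 6 treatment comparisons, at 8 to 9 for granulosa cells against oocytes in control and in dextran and at 7 to 9 in blebbistatin. A member without an adjusted p counts here as not called. With DESeq2 these were Nr0b1 for treatments in granulosa cells, Gata6 for blebbistatin against control in oocytes and Nr5a1 in every comparison across cell types. The 8 in dextran and the 7 in blebbistatin arose only with DESeq2, where Nr5a1 had no adjusted p. The exception among interactions was dextran, where DESeq2 called 1 member and edgeR 0; that member, Wt1, did not pass the filter in oocytes. In fits that add replicate number as a block, 0 members were called in each treatment comparison and interaction, and 9, 8 and 9 between cell types in control, blebbistatin and dextran; the numbers share no stated origin, and same-numbered libraries did not deviate together throughout. Of 1158 single-gene values under alternatives, 1139 kept direction and side of the threshold and 14 changed sign, none of them called. Leaving out 1 library moved the log2 change of Gata6 for blebbistatin in granulosa cells between −0.65 and 0.059, and for dextran Foxl2 between −0.32 and 0.025, Foxo1 between −0.053 and 0.058 and Esr2 between −0.096 and 0.11, and Foxo1 for dextran in oocytes between −0.016 and 0.34. Chosen after seeing the data, leaving out granulosa blebbistatin libraries 1 and 2 gave 0.092 for Gata6. Leaving out oocyte control libraries 1 and 2 gave 1.02 for Gata6 under blebbistatin in oocytes, and interactions of −4.76 (blebbistatin) and −2.84 (dextran) for Foxl2 and −0.068 for Nr5a1 (dextran). The causes were not tested. Without oocyte control libraries 1 and 2, Foxl2 was at 0 in control oocytes, so its fitted change is no bound. Over all genes the call counts moved more: for blebbistatin and dextran against control in granulosa cells edgeR called 1 and 0 genes, DESeq2 377 and 42, and edgeR without a filter 23 and 4. For blebbistatin against dextran DESeq2 called 214, against 0 with edgeR. In oocytes DESeq2 called 16 and 4 for blebbistatin and dextran, against 0 with edgeR, and for the interactions 382 and 243, against 10 and 0 with edgeR. Without granulosa blebbistatin library 2 edgeR called 115 genes for blebbistatin in granulosa cells and 103 for its interaction, and without oocyte control library 4 it called 91 for the dextran interaction. With the replicate block 5 genes were called for the blebbistatin interaction.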
